A study of Rattus norvegicus with 4 samples.

Results

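The genes described here were *Esr1* (oestrogen receptor alpha), *Pgr* (progesterone receptor), *Nr3c1* (glucocorticoid receptor), *Nr3c2* (mineralocorticoid receptor), *Thra* and *Thrb* (the thyroid hormone receptors) and *Vdr* (vitamin D receptor). They were the 7 of 30058 genes of the count matrix whose symbols match these names, and each was followed across the cell types of the rat anterior pituitary and between the sexes. The cells came from Sprague Dawley rats. The female pool held 4 pituitaries of 44-day-old animals in diestrus and the male pool 4 pituitaries of 59-day-old animals. Each gland was dispersed with trypsin and EDTA, each pool was run on 2 lanes of a 10X Genomics 3′ single-cell RNA assay, and no hormone or drug was given. Lanes 1 and 2 held the female cells and lanes 3 and 4 the male cells, as judged from the number of cells stated for each sex. The 2 lanes of a sex are therefore technical replicates of 1 pool, and p-values of the tests between the sexes measure the spread between lanes. In the tests between cell types the lanes of a sex were summed, so those p-values measure how far the types differed between the 2 pools. Sex cannot be told apart from pool and age.

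Nuclear receptors are transcription factors switched by small lipid-soluble hormones that enter the cell. Steroid receptors bind DNA as paired molecules once the hormone is present, whereas thyroid hormone and vitamin D receptors sit on DNA together with a retinoid X receptor. In the anterior pituitary they carry feedback from the target organs: oestradiol and progesterone act on gonadotrophs and lactotrophs, glucocorticoids restrain *Pomc* in corticotrophs, and thyroid hormone restrains *Tshb* in thyrotrophs, largely through *Thrb*. Oestradiol is also a classic inducer of *Pgr*.

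The matrix held 7861 cells with 86742346 unique molecular identifiers (UMIs, each a counted transcript molecule), and the median cell had 8853 UMIs and 2652 genes. The 4 lanes held 1861 to 2085 cells and 18955509 to 24048021 UMIs. The Y-linked *Eif2s3y* had 0, 1, 2038 and 2100 UMIs in lanes 1 to 4, so the sex of the lanes matched their assignment. *Ddx3y*, also Y-linked, had 10, 8, 11 and 14 UMIs and did not separate the sexes. The paper reports both Y-linked genes in male pituitary cells only. These *Ddx3y* counts, taken over all cells of a lane and without a threshold, differ from that report, and the reason was not tested. Of the barcode sequences, 30 occurred in 2 lanes, 9 of them within a sex. Cell types were set by marker genes (hormone genes for the endocrine types), and 6846 cells remained after doublets and outliers had been removed: 2314 folliculostellate cells (FSC), 1889 somatotrophs, 793 corticotrophs, 548 leukocytes, 486 lactotrophs, 361 erythrocytes, 237 gonadotrophs, 133 endothelial cells and 85 thyrotrophs. A level below is in CPM, the UMIs of a gene per 1000000 UMIs of all cells of that type in that lane, and lane values are given in the order female lane 1, female lane 2, male lane 3, male lane 4.

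Over all these cells the receptors had 6894 UMIs (*Thra*), 3343 (*Nr3c1*), 2520 (*Thrb*), 1525 (*Esr1*), 663 (*Pgr*), 607 (*Nr3c2*) and 254 (*Vdr*). Each receptor had its own distribution over the cell types. To test it, the fitted log2 level of each gene in each of 8 cell types was set against the mean fitted log2 level of the other 7. The fit used 16 sums of counts, 1 for each type and sex, with sex as a covariate (edgeR quasi-likelihood test, Benjamini-Hochberg adjusted p under 0.001). A mean of log2 levels is pulled down by types with few UMIs. The fold changes are therefore not ratios to the mean CPM of the other types. Of the 56 tests of the receptors, 19 were called, 14 of them higher and 5 lower, while 13.3% of the tests over all genes were called. The share of all genes called was 20.0% in FSC, 11.4% in corticotrophs, 7.63% in gonadotrophs, 3.58% in thyrotrophs, 11.3% in somatotrophs, 7.61% in lactotrophs, 27.2% in leukocytes and 17.5% in endothelial cells. Where a receptor had no UMI in some of the types, the fitted fold change depends on the software's prior count, and levels are given in its place.

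**Figure D1:**
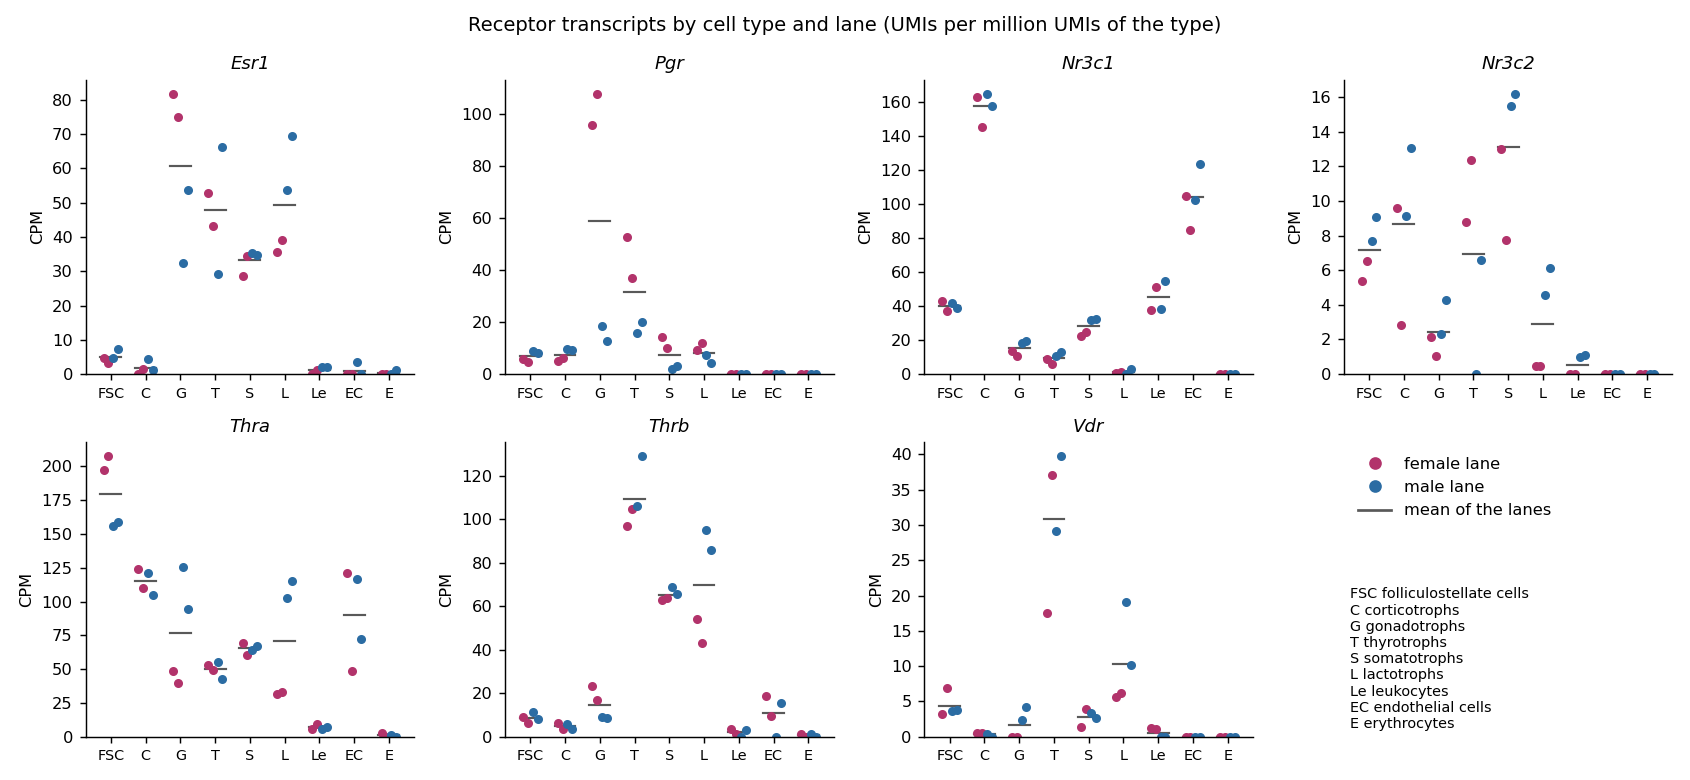
Level of each receptor gene (CPM, UMIs per 1000000 UMIs of the type) in 9 cell types; each point is 1 of the 4 lanes, with female and male lanes in different colours, and the horizontal lines mark the mean of the 4 lanes (C corticotrophs, G gonadotrophs, T thyrotrophs, S somatotrophs, L lactotrophs, Le leukocytes, EC endothelial cells, E erythrocytes). *Nr3c1* was highest in corticotrophs at 145 to 165 CPM, *Thra* in FSC at 156 to 207 CPM and *Thrb* in thyrotrophs at 96.8 to 129 CPM, and erythrocytes were at or near 0 for every receptor.

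*Esr1*, the receptor for oestradiol, was found in gonadotrophs, lactotrophs, thyrotrophs and somatotrophs and was near 0 in the other types. In gonadotrophs the 4 lanes gave 81.8, 75.0, 32.5 and 53.6 CPM. In lactotrophs they gave 35.6, 39.2, 53.6 and 69.5 CPM, in thyrotrophs 52.8, 43.2, 29.2 and 66.1 CPM, and in somatotrophs 28.5, 34.5, 35.3 and 34.7 CPM. The ranges of these types over the 4 lanes overlapped from each to the next in the order, so their ranking was not resolved over both sexes. In the female lanes alone, gonadotrophs lay above thyrotrophs (6 and 7 UMIs), then came lactotrophs and then somatotrophs, without overlap. With the hormone genes taken out of the totals, these lanes gave 97.1 and 92.3 CPM in gonadotrophs and 59.5 and 48.7 CPM in thyrotrophs. Lactotrophs then had 52.7 and 57.1 CPM, within the thyrotroph range, and somatotrophs 39.4 and 48.6 CPM. In the male lanes thyrotrophs overlapped with each of the others. All lanes of somatotrophs, the lowest of these types, lay above the 3.15 to 7.32 CPM of FSC. Corticotrophs had 0 to 4.38 CPM. The gene was called higher in gonadotrophs (log2 fold change 3.06 ± 0.31 SE, edgeR adjusted p = 3.48e-06), lactotrophs (3.02 ± 0.29, adjusted p = 1.70e-06) and somatotrophs (2.47 ± 0.28, adjusted p = 6.88e-06). In thyrotrophs the value was 2.45 with an adjusted p of 1.08e-03, just short of the limit. With the 6 pituitary types alone in the fit, the somatotroph call was lost (adjusted p = 2.95e-03).

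*Pgr*, which encodes the progesterone receptor, had its highest mean levels in gonadotrophs and thyrotrophs. Gonadotrophs had 95.6, 108, 18.6 and 12.9 CPM, from 90, 102, 8 and 6 UMIs. Thyrotrophs had 52.8, 37.0, 15.9 and 19.8 CPM, from 6 UMIs in each lane. In both types the female lanes were higher than the male lanes without overlap. In thyrotrophs the sexes were not tested for *Pgr*, and 25.0% of female and 22.4% of male cells had a UMI, at a median of 6237.5 and 13809 UMIs per cell. The lowest thyrotroph lane still lay above the highest lactotroph lane, at 11.95 CPM. Lactotrophs, corticotrophs, somatotrophs and FSC followed with overlapping ranges and means of 8.17, 7.50, 7.33 and 6.98 CPM. No UMI of *Pgr* was found in leukocytes, endothelial cells or erythrocytes. The gene was called higher in gonadotrophs (edgeR adjusted p = 3.08e-04), a call that was lost with the 6 pituitary types alone in the fit (adjusted p = 0.0113). In thyrotrophs, with 24 UMIs over the 4 lanes, it was not called (edgeR adjusted p = 0.0547).

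Detection of *Pgr* was set beside that of *Esr1* within single gonadotrophs, as a description. In the female gonadotrophs, 55.2% of the cells with an *Esr1* UMI also had a *Pgr* UMI, against 44.8% of the cells without one. The cells with *Esr1* were the deeper ones, with a median of 13857 UMIs against 8563. Their detection of *Pgr* was therefore not compared at equal depth.

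*Nr3c1*, the glucocorticoid receptor gene, was highest in corticotrophs, the cells that make adrenocorticotropin, and lowest in lactotrophs among the types in the fit. Corticotrophs had 163, 145, 165 and 158 CPM, and endothelial cells 105, 84.7, 103 and 124 CPM. Leukocytes (37.9 to 54.8 CPM) overlapped with FSC (37.3 to 42.8 CPM), while somatotrophs were lower at 22.7 to 32.7 CPM, gonadotrophs at 10.6 to 19.3 CPM and thyrotrophs at 6.17 to 13.2 CPM. With the hormone genes taken out of the totals, somatotrophs had 31.4, 35.1, 46.4 and 47.8 CPM. These values overlapped with the 43.0, 37.5, 42.4 and 39.2 CPM of FSC. The fitted log2 fold changes were 0.55 in somatotrophs and 0.50 in FSC, neither called. Corticotrophs lay above endothelial cells, and endothelial cells above leukocytes, with no overlap of lanes. Lactotrophs had 0.469, 1.43, 0 and 3.07 CPM, from 1, 3, 0 and 3 UMIs. Erythrocytes had none. The gene was called higher in corticotrophs (log2 fold change 2.97 ± 0.13 SE, edgeR adjusted p = 2.20e-10), endothelial cells (1.90 ± 0.17, adjusted p = 2.37e-07) and leukocytes (1.40 ± 0.16, adjusted p = 2.60e-06), and lower in lactotrophs (−4.69 ± 0.29, adjusted p = 1.60e-08). The endothelial call was lost after every cell had been thinned to 2000 UMIs (adjusted p = 2.21e-03) and the leukocyte call when the hormone genes were taken out of the totals (adjusted p = 1.77e-03). With erythrocytes in the fit, the lactotroph value was −3.43 and was not called (adjusted p = 1).

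*Nr3c2*, the mineralocorticoid receptor gene, was sparse. Somatotrophs had 12.98, 7.75, 15.5 and 16.2 CPM, and corticotrophs 9.57, 2.82, 9.13 and 13.1 CPM. FSC had 5.39 to 9.05 CPM and thyrotrophs 0 to 12.3 CPM. The lanes of each type overlapped with those of the next in the order, so no neighbours were separated. Lactotrophs had 0.469 and 0.478 CPM in the female lanes and 4.54 and 6.13 CPM in the male lanes, and endothelial cells and erythrocytes had no UMI. The gene was called higher in somatotrophs (edgeR adjusted p = 2.24e-05), and the call was lost with the 6 pituitary types alone in the fit (adjusted p = 1.13e-03).

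*Thra* and *Thrb* encode receptors for the same hormone, and their levels were ordered differently across the types. Among the 9 types, *Thra* was highest in FSC, at 198, 207, 156 and 159 CPM. Corticotrophs came next with 124, 110, 121 and 105 CPM and were below every FSC lane. With the hormone genes taken out of the totals, corticotrophs had 156.98, 143, 151 and 130 CPM. FSC then had 199, 208, 157.05 and 160 CPM, so the lanes of these types nearly met. Endothelial cells (48.9 to 121 CPM), gonadotrophs (48.9, 40.1, 125 and 94.3 CPM), lactotrophs (31.4, 33.5, 103 and 116 CPM) and somatotrophs (60.7 to 69.3 CPM) overlapped with one another over the 4 lanes. Somatotrophs lay above gonadotrophs and lactotrophs in the female lanes (69.3 and 60.7 CPM) and below both in the male lanes (64.3 and 67.3 CPM). Thyrotrophs lay just below somatotrophs at 43.0 to 55.7 CPM, leukocytes had 5.89 to 9.66 CPM and erythrocytes 0 to 2.55 CPM. *Thra* was called higher in FSC (log2 fold change 1.51 ± 0.20 SE, edgeR adjusted p = 1.81e-05) and lower in leukocytes (−3.10 ± 0.36, adjusted p = 2.70e-06). The corticotroph value of 0.97 was not called (adjusted p = 2.59e-03), and the FSC call was lost with the 6 pituitary types alone in the fit (adjusted p = 1.76e-03).

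*Thrb*, the receptor through which thyroid hormone represses *Tshb*, was highest in thyrotrophs, at 96.8, 105, 106 and 129 CPM. Lactotrophs had 54.4, 43.0, 95.4 and 85.9 CPM and somatotrophs 63.0, 64.0, 68.7 and 65.8 CPM. Every thyrotroph lane was above every lane of these types, which overlapped with each other and lay above gonadotrophs at 8.57 to 23.4 CPM. With the hormone genes taken out of the totals, thyrotrophs had 109, 118, 133 and 155 CPM. Lactotrophs then had 80.4, 62.7, 117 and 105 CPM, so these types overlapped over the 4 lanes. FSC, the type with the most *Thra*, had 6.52 to 11.5 CPM of *Thrb*, and corticotrophs had 3.36 to 6.19 CPM. The gene was called higher in thyrotrophs (log2 fold change 2.90 ± 0.26 SE, edgeR adjusted p = 1.82e-06), somatotrophs (2.59 ± 0.19, adjusted p = 9.54e-08) and lactotrophs (2.57 ± 0.20, adjusted p = 2.43e-07). It was called lower in corticotrophs (−2.16 ± 0.31, adjusted p = 6.61e-05), FSC (−1.36 ± 0.26, adjusted p = 5.23e-04) and leukocytes (−3.19 ± 0.45, adjusted p = 2.40e-05). The FSC call was lost under 5 alternatives, with an adjusted p of up to 0.140 after thinning, the leukocyte call after thinning (adjusted p = 2.56e-03) and the corticotroph call without lane 4 (adjusted p = 1.19e-03).

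The 3′ reads do not separate the isoforms of either thyroid hormone receptor. The 3′ end of *Thra* also overlaps that of *Nr1d1*, a repressor of the circadian clock that lies on the opposite strand. The authors lengthened gene ends, whatever the strand, by a set length or part of the way to the nearest feature, whichever was shorter. Their rule was meant to keep annotations from overlapping. Whether reads were assigned by strand is not given in the sources used here, and how reads of this overlap were assigned was not tested. *Nr1d1* itself had 37.8 to 46.1 CPM in FSC, 39.0 to 47.8 CPM in corticotrophs, 7.30 to 10.4 CPM in somatotrophs and none in erythrocytes.

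*Vdr*, the vitamin D receptor gene, had the fewest UMIs of the receptors, and its level was highest in thyrotrophs and lactotrophs, although the more numerous FSC and somatotrophs held 32.7 and 29.9% of its UMIs. Thyrotrophs had 17.6, 37.0, 29.2 and 39.7 CPM, from 2, 6, 11 and 12 UMIs. Lactotrophs had 5.62, 6.21, 19.1 and 10.2 CPM, and FSC 3.18 to 6.97 CPM. The lowest thyrotroph lane lay within the lactotroph range. The gene was called higher in thyrotrophs (edgeR adjusted p = 1.39e-04) and lactotrophs (adjusted p = 6.62e-04). Both calls were lost with the 6 pituitary types alone in the fit (adjusted p = 1.52e-03 and 6.00e-03) and after thinning (adjusted p = 2.59e-03 and 0.0177), and the lactotroph call was also lost without lane 3 (adjusted p = 3.05e-03) and with scaling by library size alone (adjusted p = 2.40e-03).

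Promoter windows are shown for *Thrb*, which was called in more cell types than the other receptors, and for *Pgr*, whose levels in gonadotrophs did not overlap between the sexes. Each window spans 250 bases before to 50 bases after the annotated start of a transcript in RefSeq, on assembly GRCr8, which is not the assembly used for the counts. Capitals mark the searched motifs. The first was GGTCA or its reverse complement TGACC, the core of the sites bound by oestrogen, thyroid hormone and vitamin D receptors. The other was GGGCGG or CCGCCC, the GC box, whose matches may overlap one another. The *Pgr* window lies at chr8:14354148-14354447 on the plus strand and the *Thrb* window at chr15:10461397-10461696 on the minus strand.
Pgr: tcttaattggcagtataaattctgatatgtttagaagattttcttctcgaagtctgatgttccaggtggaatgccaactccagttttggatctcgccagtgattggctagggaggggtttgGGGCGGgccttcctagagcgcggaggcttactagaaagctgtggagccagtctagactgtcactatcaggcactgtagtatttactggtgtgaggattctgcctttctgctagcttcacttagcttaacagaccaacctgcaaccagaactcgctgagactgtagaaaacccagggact
Thrb: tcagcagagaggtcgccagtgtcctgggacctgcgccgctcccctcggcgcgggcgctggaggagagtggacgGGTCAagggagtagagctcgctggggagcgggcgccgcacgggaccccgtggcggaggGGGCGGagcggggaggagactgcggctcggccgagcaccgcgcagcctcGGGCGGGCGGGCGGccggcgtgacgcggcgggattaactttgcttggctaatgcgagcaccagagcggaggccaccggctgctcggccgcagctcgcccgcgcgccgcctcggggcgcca
RefSeq held 8 windows for 6 of the 7 receptors. GGTCA or its reverse complement was in 1 of the 8, that of *Thrb*, and in 40.5% of 33469 promoters of the same length. The GC box was in 6 of the 8 windows and in 33.1% of all promoters. A match says only that these letters are in the window, and starts outside the RefSeq table were not searched.

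Detection was then counted in single cells. Erythrocytes, which should lack these transcripts, gave the background share: *Thra* in 0.831% and *Esr1* in 0.277% of 361 cells, and *Pgr* and *Nr3c1* in 0. The median depth was 8246 UMIs in erythrocytes against 6482.5 to 13659 in the other types. Globin fills much of the depth of erythrocytes, so they can understate the background. *Prl* took 0.0571 and 0.0656% of UMIs in their female lanes, against 0.161 and 0.171% in leukocytes and 0.105 and 0.105% in endothelial cells. For 42 of the 56 pairs of a receptor and a type, the exact 95% (Clopper-Pearson) interval of the share of cells with at least 1 UMI lay above that of erythrocytes. The share of all genes above the erythrocyte level was not counted. These intervals cover counting error only, and cells of a lane are not replicates.

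*Nr3c1* was found in 77.8% of corticotrophs (exact 95% interval 74.8 to 80.7), 54.9% of endothelial cells, 25.4% of FSC and 1.44% of lactotrophs. *Thra* was found in 72.0% of corticotrophs, 69.8% of FSC, 57.2% of somatotrophs and 4.74% of leukocytes. Thinned to 2000 UMIs per cell, *Thra* was in 30.7% of FSC and 22.7% of corticotrophs, the reverse of the order before thinning. *Thrb* was found in 55.3% of thyrotrophs, 53.8% of somatotrophs and 48.8% of lactotrophs, or 17.6, 11.1 and 12.8% after thinning.

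*Esr1* was found in 48.5% of gonadotrophs (42.0 to 55.1), 38.8% of thyrotrophs, 38.7% of lactotrophs and 36.7% of somatotrophs, and in 3.67% of FSC. *Pgr* was found in 36.3% of gonadotrophs (30.2 to 42.8) and 23.5% of thyrotrophs. *Vdr* was found in 28.2% of thyrotrophs (19.0 to 39.0) and 10.3% of lactotrophs. *Nr3c2* had its highest share in somatotrophs, 16.7% over both sexes (11.3% in females and 21.4% in males), or 2.38% after thinning.

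**Figure D2:**
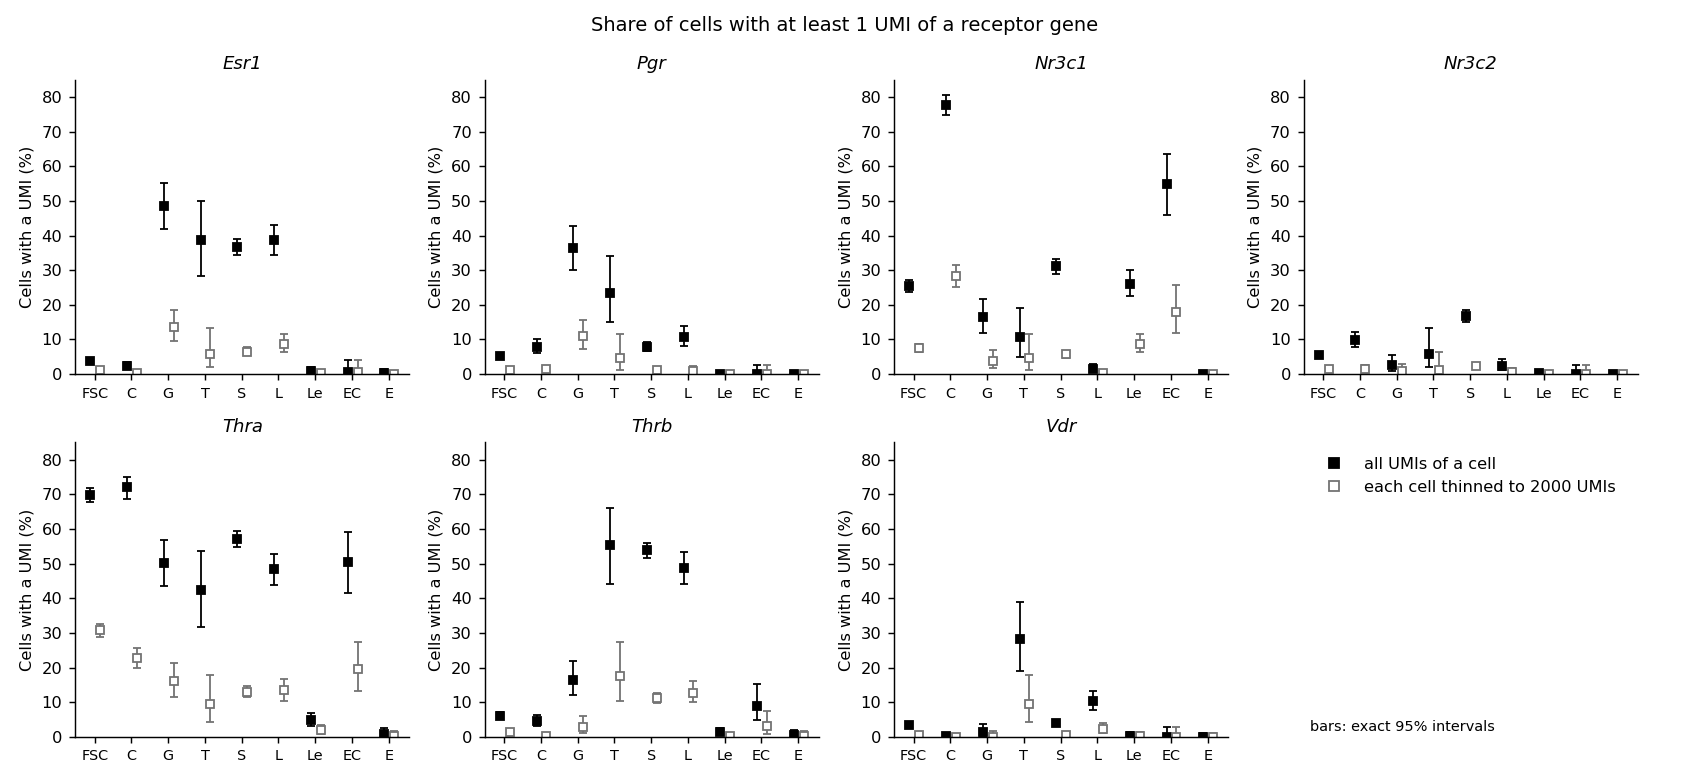
Percent of cells with at least 1 UMI of each receptor in 9 cell types, with exact 95% intervals as bars; filled squares use all UMIs of a cell and open squares each cell thinned to 2000 UMIs. *Nr3c1* in corticotrophs (77.8%) and *Thra* in corticotrophs (72.0%) and FSC (69.8%) had the highest shares before thinning, and erythrocytes had at most 0.831%.

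Males were then compared with females within each of the 6 pituitary types, to ask whether the receptors differ by sex (edgeR, 2 lanes against 2, with a positive fold change for higher in males). Of 32 tests of receptors that passed the filter on low counts, 4 were called, against 6.69% of the tests over all genes. *Pgr* was lower in male gonadotrophs and somatotrophs, and *Thra* was lower in male FSC and higher in male lactotrophs. By type, the share of all genes called was 2.93% in FSC, 0.624% in corticotrophs, 4.36% in gonadotrophs, 1.68% in thyrotrophs, 10.6% in somatotrophs and 17.6% in lactotrophs. No receptor was called in corticotrophs, where 1 of 5 tested had an unadjusted p under 0.05 by edgeR and DESeq2 called 0, or in thyrotrophs, where 0 of 3 had and DESeq2 called 0.

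In gonadotrophs *Pgr* fell from 95.6 and 108 CPM in the female lanes to 18.6 and 12.9 CPM in the male lanes (log2 fold change −2.96 ± 0.30 SE, edgeR adjusted p = 8.80e-06). The paper had already listed *Pgr* as dominant in female gonadotrophs, from the same cells. The share of gonadotrophs with a *Pgr* UMI was 51.0% in females (74 of 145 cells) and 13.04% in males (12 of 92), or 15.9 and 3.26% at equal depth. In somatotrophs the level fell from 14.3 and 9.96 CPM to 1.97 and 3.04 CPM (−2.31 ± 0.26, adjusted p = 1.53e-08), and the share from 12.8% to 3.66%. Female and male lanes did not overlap in either type. After thinning, the gonadotroph call was lost (adjusted p = 2.46e-03). In lactotrophs *Pgr* had 9.37, 11.95, 7.27 and 4.09 CPM, a difference that was not called (−1.52 ± 0.43, adjusted p = 4.20e-03). FSC (5.87, 4.72, 9.04 and 8.28 CPM) and corticotrophs (5.07, 6.11, 9.49 and 9.34 CPM) had the higher values in the male lanes, also not called (adjusted p = 0.0978 and 0.513).

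In lactotrophs *Thra* had 31.4 and 33.5 CPM in the female lanes and 103 and 116 CPM in the male lanes (log2 fold change 1.09 ± 0.17 SE, edgeR adjusted p = 4.21e-07). The lanes did not overlap. *Prl*, the hormone gene of these cells, took 32.0, 31.02, 18.3 and 17.4% of their UMIs, and the median depth was 18301 UMIs in female and 7265 in male lactotrophs. With the hormone genes taken out of the totals, *Thra* stood at 46.5, 48.8, 126 and 141 CPM. Per cell, it had 0.540, 0.680, 0.863 and 0.883 UMIs. The share of cells with a UMI was 41.9% in females and 54.1% in males, or 6.17 and 19.7% at equal depth. The call was lost after thinning (adjusted p = 0.0258). Scaling by library size alone moved the median over all genes in lactotrophs from 0.02 to 0.66 on the log2 scale, and there the *Thra* difference was 1.74. *Nr1d1* moved the same way, with 9.37, 14.8, 32.7 and 24.5 CPM, and its part in the result was not tested.

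In FSC *Thra* fell from 198 and 207 CPM to 156 and 159 CPM (−0.40 ± 0.06, edgeR adjusted p = 3.30e-04), the smallest of the called differences. The lanes did not overlap, and the share of cells was 72.2% in females and 67.5% in males. *Nr1d1* in FSC had 38.2, 46.1, 44.4 and 37.8 CPM, with overlapping sexes. The call was lost with DESeq2 (adjusted p = 3.77e-03), after thinning (adjusted p = 1.94e-03), without the filter on low counts (adjusted p = 0.0246) and without lane 1, 2 or 3 (adjusted p = 0.0177, 0.0266 and 2.50e-03).

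Other differences between the sexes did not pass the limit. *Esr1* in gonadotrophs had 81.8 and 75.0 CPM in females and 32.5 and 53.6 CPM in males (−1.12 ± 0.25, edgeR adjusted p = 6.49e-03), with no overlap of lanes, and *Thra* there had 48.9 and 40.1 CPM against 125 and 94.3 CPM (1.03 ± 0.23, adjusted p = 5.82e-03). Both were called when the 6 types were fitted together. *Thrb* in gonadotrophs had 23.4 and 16.9 CPM in females and 9.28 and 8.57 CPM in males (−1.42 ± 0.47, adjusted p = 0.0558). *Nr3c1* (0.38 ± 0.11, adjusted p = 9.83e-03) and *Nr3c2* (0.56 ± 0.18, adjusted p = 0.0188) in somatotrophs were likewise short of the limit. *Esr1* in lactotrophs had 35.6 and 39.2 CPM in females and 53.6 and 69.5 CPM in males, and after normalization for composition its difference was 0.06 ± 0.19 (adjusted p = 0.844). *Nr3c1* in corticotrophs differed by 0.01 ± 0.09 (adjusted p = 0.987).

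**Figure D3:**
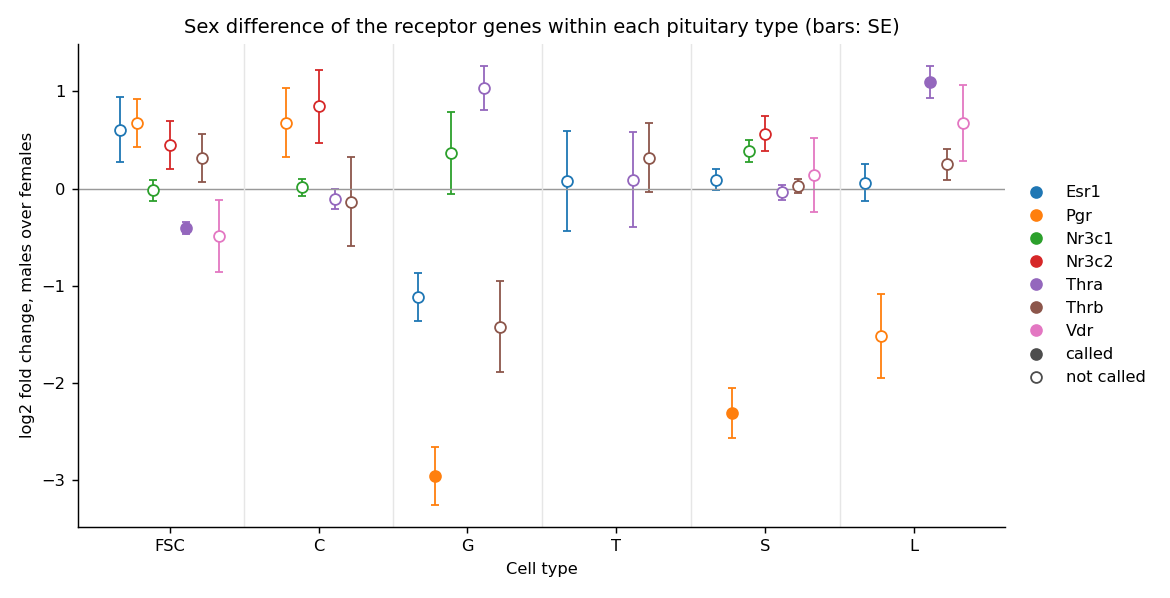
Log2 fold change of males over females for each receptor in 6 pituitary cell types (edgeR), with bars for the SE derived from the F statistic. Filled points passed an adjusted p of 0.001, open points did not, and receptors below the count filter have no point. The filled points are *Pgr* in gonadotrophs (−2.96) and somatotrophs (−2.31) and *Thra* in FSC (−0.40) and lactotrophs (1.09).

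The sex difference of each type was also tested against the mean sex difference of the other 5 pituitary types, in a joint fit of 24 sums. Here 6 of 42 tests of receptors were called, and 2.53% of all. *Pgr* was called in gonadotrophs (−2.27 ± 0.42 SE on the log2 scale, edgeR adjusted p = 2.44e-05), FSC (2.096 ± 0.34, adjusted p = 1.98e-06) and corticotrophs (2.13 ± 0.42, adjusted p = 2.20e-04). Tested alone, the sexes differed in *Pgr* by 0.67 in FSC and 0.68 in corticotrophs, neither called. The mean that these 2 types were set against included gonadotrophs (−2.96 when tested alone) and somatotrophs (−2.31). *Thra* was called in FSC (−0.85 ± 0.13, adjusted p = 2.08e-07) and lactotrophs (0.96 ± 0.20, adjusted p = 1.01e-04), and *Esr1* in gonadotrophs (−1.68 ± 0.34, adjusted p = 1.72e-04). *Pgr* in somatotrophs was at −1.47 and was not called (adjusted p = 1.88e-03). Over all genes, 2.13% were called in FSC, 1.08% in corticotrophs, 1.94% in gonadotrophs, 0.925% in thyrotrophs, 1.75% in somatotrophs and 7.34% in lactotrophs. After thinning, edgeR called 0 of 36 tests, with 6 at an unadjusted p under 0.05 and no other tool run. *Pgr* and *Thra* in FSC held without each lane in turn, while *Esr1* in gonadotrophs was lost without lane 1 or 3 (adjusted p = 3.80e-03 and 0.0526) and with scaling by library size alone (1.78e-03), *Pgr* in gonadotrophs without lane 3 or 4 (1.32e-03 and 9.66e-03), *Thra* in lactotrophs without lane 1, 2 or 4 (1.48e-03 to 0.0143) and *Pgr* in corticotrophs without any 1 of the lanes (2.42e-03 to 0.0137).

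The genes around the receptors were described through 7 lists. Over all genes, 13.3% of the type tests, 6.69% of the sex tests and 2.53% of the tests in the joint fit were called. The counts of the lists below stand beside these shares. The median log2 difference between the sexes over the tests of a list ran from −0.13 (chaperones) to 0.21 (glucocorticoid targets) for 6 of the lists and was −2.53 for the oestrogen targets, of whose 15 tests 6 were of *Prl*, against −0.00 to 0.02 over all genes of a type. Among 10 relatives and partners, 13 of 72 type tests were called (8 higher and 5 lower). *Rxrg*, a retinoid X receptor and partner of *Thrb* and *Vdr*, had 35.2, 37.0, 50.4 and 76.1 CPM in thyrotrophs and at most 12.3 CPM in every lane of the other types. *Gper1*, a membrane receptor for oestradiol, was called in somatotrophs (edgeR adjusted p = 7.54e-06), where it had 7.56, 6.83, 15.2 and 14.7 CPM. *Esr2*, the other oestrogen receptor, did not exceed 0.581 CPM in any lane and was not tested. By sex, 2 of 36 tests were called, *Rxrg* (1.57 ± 0.23, adjusted p = 2.31e-06) and *Gper1* (1.001 ± 0.18, adjusted p = 7.77e-05), both higher in male somatotrophs.

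The hormone-converting enzymes, carriers and transporters set how much hormone reaches a receptor, and 11 of 64 type tests of this list were called (10 higher and 1 lower). *Hsd11b1*, which regenerates active glucocorticoid, had 418, 422, 302 and 293 CPM in FSC and at most 10.6 CPM elsewhere (8.02 ± 0.18, edgeR adjusted p = 1.84e-13). *Dio2*, the deiodinase that makes the active thyroid hormone, had 220, 302, 215 and 311 CPM in thyrotrophs and 20.2 to 28.5 CPM in somatotrophs, which also had *Thrb*. *Dio1* had 12.2, 15.8, 4.54 and 6.13 CPM in lactotrophs. *Slc7a8*, an amino acid transporter that also carries thyroid hormone, was called lower in endothelial cells, where it had no UMI. Named after their values were seen, *Hsd11b2*, which inactivates glucocorticoid, had 11.7 to 23.6 CPM in gonadotrophs and at most 1.96 CPM elsewhere, and the thyroid hormone binding protein *Crym* was highest in FSC (49.7 to 61.8 CPM).

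By sex, 4 of 27 tests of these genes were called, against 6.69% over all genes. *Hsd11b1* in FSC, also named after its values were seen, was lower in males (−0.54, adjusted p = 1.84e-06), and so was *Dio1* in lactotrophs (−2.03 ± 0.42, edgeR adjusted p = 9.19e-05). The transporters *Slc7a8* (0.93 ± 0.13, adjusted p = 1.90e-04) and *Slco1c1* (0.490, 0.674, 6.92 and 7.90 CPM, adjusted p = 5.40e-05) were higher in male FSC. In the joint fit, 2 of 66 tests were called.

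**Figure D4:**
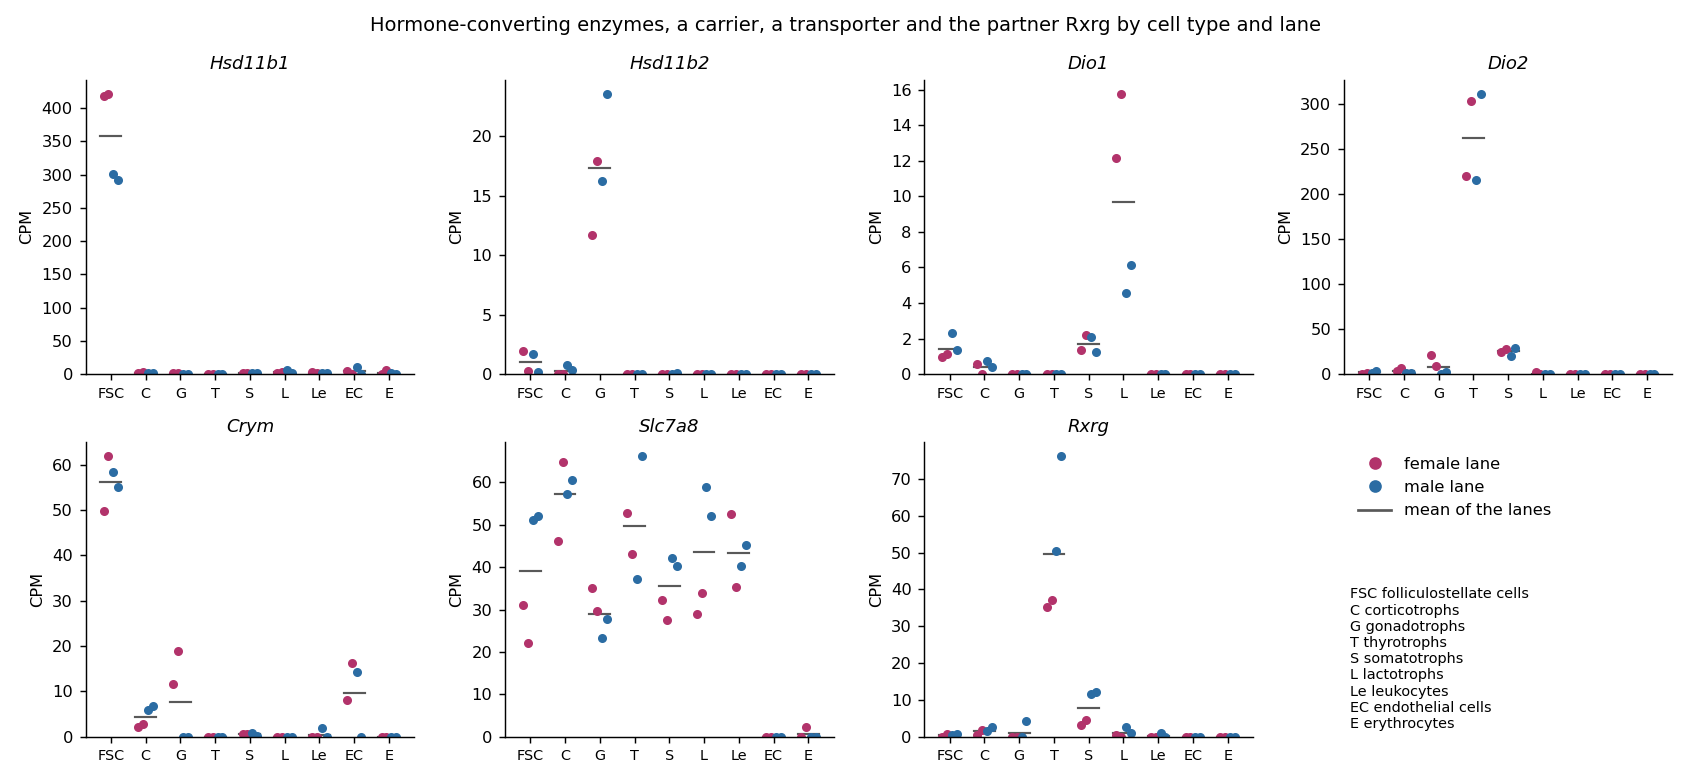
Level (CPM) of hormone-converting enzymes, *Crym*, *Slc7a8* and *Rxrg* in 9 cell types; each point is a lane, coloured by sex, and horizontal lines mark the mean of the 4 lanes. *Hsd11b1* stood at 293 to 422 CPM in FSC, *Dio2* at 215 to 311 CPM in thyrotrophs and *Hsd11b2* at 11.7 to 23.6 CPM in gonadotrophs.

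Coregulators are proteins that receptors recruit to activate or silence a gene. Of these, 5 of 80 type tests were called, all higher, among them *Ncoa3* in leukocytes with 20.8, 25.8, 19.6 and 19.4 CPM (3.54 ± 0.34, edgeR adjusted p = 3.57e-07). By sex 1 of 44 tests was called, *Ncoa1* in somatotrophs (0.59 ± 0.10, adjusted p = 1.71e-05). Of the chaperones that hold steroid receptors ready for hormone, 6 of 48 type tests were called, 3 in each direction, with *Hspa8* higher in FSC (0.72 ± 0.13, adjusted p = 3.09e-04) and *Fkbp4* lower in endothelial cells (−1.50 ± 0.19, adjusted p = 1.44e-05). By sex 11 of 36 were called, 5 higher and 6 lower in males, against 6.69% over all genes. Somatotrophs and lactotrophs each had 4 of 6 called, and 10.6 and 17.6% of all genes were called there. *Dnajb1* rose in male gonadotrophs, from 348 and 191 CPM to 1065 and 1203 CPM (1.81 ± 0.17, adjusted p = 4.54e-06). In the joint fit 5 of 36 tests of chaperones were called, while 0 of 60 for coregulators and 0 of 54 for relatives and partners were, with 5 and 6 at an unadjusted p under 0.05 by edgeR and no other tool run.

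The lists of target genes named genes that each hormone is known to induce. Of 11 glucocorticoid targets, 24 of 88 type tests were called (14 higher and 10 lower), against 13.3% over all genes. *Mt2A*, a metallothionein, was highest in FSC with 3135 to 3903 CPM (5.68 ± 0.21, edgeR adjusted p = 5.80e-12), *Sgk1*, a kinase, in endothelial cells with 342, 231, 199 and 324 CPM (5.13 ± 0.28, adjusted p = 5.92e-10), and *Nfkbia*, an inhibitor of NF-kappa-B, in leukocytes with 1080 to 1799 CPM (4.41 ± 0.16, adjusted p = 2.25e-12). Corticotrophs, the type with the most *Nr3c1*, had 2 of the 11 targets called, both lower, with 8 of 11 at an unadjusted p under 0.05, where 11.4% of all genes were called. By sex, 17 of 57 tests were called, 11 higher and 6 lower in males, against 6.69% over all genes. In somatotrophs the clock gene *Per1* had 10.7, 7.56, 26.2 and 25.1 CPM (1.44 ± 0.15, adjusted p = 8.06e-09) and the zinc finger gene *Zbtb16* 5.62, 3.69, 11.8 and 13.99 CPM (1.42 ± 0.22, adjusted p = 7.65e-06), and *Sgk1* rose in male FSC (1.38 ± 0.15, adjusted p = 1.28e-05). In the joint fit 9 of 66 tests were called.

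Of the oestrogen targets, 10 of 32 type tests were called, with *Gal*, *S100g* and the marker *Prl* higher in lactotrophs. Lactotrophs were set by *Prl* or *Agtr1b*. The type tests of *Prl*, which are in this count, were therefore largely fixed by the typing and are no result. By sex, 13 of 15 tests were called, all lower in males, against 6.69% of the tests over all genes. *Prl* gave 6 of the 15 tests. The paper had already reported *Gal*, *S100g* and *Prl* as higher in females, so the choice of genes fixed this count in part. *Gal*, a neuropeptide, had 1155, 1208, 8.17 and 27.6 CPM in lactotrophs, and *S100g*, a calcium-binding protein, had 1126, 1119, 16.3 and 4.09 CPM there and 211, 192, 0.394 and 0.243 CPM in somatotrophs. *Greb1* had 8.91, 7.57, 0 and 0.243 CPM in somatotrophs and 12.7, 18.0, 0 and 0 CPM in gonadotrophs, the types in which *Pgr* was called. *Prl* was called lower in males in all 6 types, and in erythrocytes, which do not make it, it stood at 571, 656, 127 and 116 CPM, also lower in the male lanes. The part of free RNA in the calls of *Prl* was not tested. In the joint fit 3 of 24 tests were called.

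Of 5 thyroid hormone targets, 10 of 40 type tests were called (7 higher and 3 lower). *Thrsp*, a regulator of lipid synthesis, was called in gonadotrophs, with 12.7, 5.28, 285 and 169 CPM, and at most 8.80 CPM in any lane of another type. It was higher in males (4.36 ± 0.35, edgeR adjusted p = 1.28e-06). *Klf9*, which is on the glucocorticoid list too, had 46.9, 50.7, 160 and 133 CPM in lactotrophs (0.94 ± 0.14, adjusted p = 2.79e-07). The malic enzyme gene *Me1* was lower in leukocytes (−3.80 ± 0.46, adjusted p = 4.45e-06). By sex 3 of 18 and in the joint fit 1 of 30 tests were called.

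The genes most like each receptor were found by Pearson correlation of log2(CPM + 1) across the 16 sums of type and sex, among 10887 genes, as a description. The most similar named genes were *Nrsn1* for *Esr1* (0.928), *Scn2b* for *Pgr* (0.924), *Acadl* for *Nr3c1* (0.888), *Stradb* for *Nr3c2* (0.926), *Mphosph6* for *Thra* (0.957), *Thy1* for *Thrb* (0.931) and *Lix1* for *Vdr* (0.896). These sums share libraries and differ in depth. Among the receptors, *Esr1* was most like *Thrb* (0.781) and *Pgr* (0.756) and least like *Nr3c1* (−0.796), and *Thra* and *Thrb* had a correlation of 0.199.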

How the data were processed

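Pituitary cells of each sex were pooled and captured on 2 lanes with the 10X Genomics 3′ v2 chemistry. The authors processed the reads with Cell Ranger 2.1 against the NCBI Rnor6 annotation, in which genes had been extended at their 3′ ends and mitochondrial genes came from Ensembl, and lanes were combined after mapped reads had been equalized. The deposited values are UMI counts, 1 per gene and cell, with no further normalization, and every column was assigned to a lane (0 unmapped). The lane of a cell was read from its barcode.

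Cell types were assigned by the marker rules of the study. Cells with a mitochondrial share over 2 SDs above the mean (275), the 1.5% at each end of gene or UMI number (328), ambiguous cells (207) and doublets (191, found by synthetic doublets) were removed, 218 unclassified cells were imputed from 30 neighbours, and melanotrophs, pericytes and posterior lobe cells were left out of the tests. Imputed cells number 189 among the final cells. The lanes held 18955509 to 24048021 UMIs, and intervals cover counting error only.

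Counts were summed per type and sex or per type and lane and tested with edgeR 4.0.16 (TMM normalization, minimum count of 10, quasi-likelihood test, Benjamini-Hochberg adjustment over all genes of a contrast, limit 0.001) in R 4.3.3, after tests on simulated data, with DESeq2 1.42.0 as an alternative. Other alternatives were scaling by library size with or without hormone genes, no filter, thinning, keeping outliers, leaving out imputed cells, and leaving out each lane. The SE printed with an edgeR fold change is its absolute value divided by the square root of the F statistic, not an error fitted by edgeR. Cells were processed with Python 3.11.15, scipy 1.17.1 and scikit-learn 1.9.0. Of each list, up to 3 called genes with the largest absolute log2 fold change are named per comparison. Other list genes named are said to be chosen after their values were seen. The exceptions are *Esr2*, *Nr1d1* and, between the sexes, *Prl*, which are also named outside this rule. The receptors and lists were chosen with earlier results of these data known. Some genes of the lists are counted but not reported here by name.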

Additional observations from a re-analysis of the deposited data

Results flagged for a closer look

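The sex difference of a receptor in 1 pituitary type differed from the mean of the other 5 types in 6 tests of the joint edgeR fit. For *Pgr* the value on the log2 scale was −2.27 in gonadotrophs, 2.096 in FSC and 2.13 in corticotrophs. The values in FSC and corticotrophs stand beside levels of at most 9.49 CPM in any lane of these types. Tested alone, the sexes differed in *Pgr* by 0.67 and 0.68 in these types, neither called. For *Thra* it was −0.85 in FSC and 0.96 in lactotrophs, and for *Esr1* it was −1.68 in gonadotrophs.

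Receptor transcripts were also found in cell populations left out of the comparisons, above what a count of 0 allows. In 47 pericytes there were 23 UMIs of *Nr3c1* and 66 of *Thra*, or 68.0 and 195 CPM over the lanes together. In 55 melanotrophs, the *Pomc* cells of the intermediate lobe, there were 15 UMIs of *Pgr*, 8 of *Nr3c1*, 8 of *Nr3c2* and 58 of *Thra*, while *Thrb* and *Vdr* had 0. Their 12.8 CPM of *Nr3c1* stand beside 145 to 165 CPM in corticotrophs, which share the hormone precursor. All but 2 of the melanotrophs were from males. In 56 posterior lobe cells, 4 of them female, there were 6 UMIs of *Esr1*, 34 of *Nr3c1*, 65 of *Thra* and 8 of *Thrb*. These populations are too small in 1 or both sexes for a comparison.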

How the results depend on the processing

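No paired analysis was possible between female and male lanes because the lanes of each sex are technical replicates of a separate pool. The replicate number of each lane is also not known. Across the alternatives, the 29 called results gave 374 values, of which 328 kept direction and call and 46 kept direction but lost the call. The limit of 0.05 was among these alternatives and reuses the same fit, so its 29 values could not lose the call. With a limit of 0.05, 32 type tests (19 at 0.001) and 9 sex tests (4 at 0.001) were called. More of all genes were called at that limit too. Of 13606 genes, the type tests called 1525 to 3847 higher and 689 to 3086 lower per type. The sex tests called 50 to 1597 higher and 54 to 1664 lower per type, of 3266 to 12895 genes. Thinning each cell to 2000 UMIs left 1 sex call and, in the joint fit, 0 of 6 calls. Over all genes, the thinned sex tests called 0 to 95 higher and 1 to 277 lower per type. The thinned joint fit called 11 to 44 higher and 5 to 167 lower per type, of 6810 genes. Leaving out 1 lane at a time left 3 to 4 calls in the joint fit. Thinning also left 27 of the 42 shares above the erythrocyte level. These losses come with fewer counts, and further causes were not tested. *Nr3c1* in gonadotrophs, at −0.99 and not called, turned to 0.16 with erythrocytes in the fit. Scaling by library size alone moved the split of calls higher and lower in males over all genes of lactotrophs from 511 and 1010 to 2319 and 322, in gonadotrophs from 128 and 171 to 360 and 160, in FSC from 147 and 231 to 217 and 212, and in somatotrophs from 584 and 681 to 654 and 508. Over all genes against other types, it moved the split in leukocytes from 2424 and 1274 to 1755 and 1898, in somatotrophs from 1201 and 339 to 619 and 473, in lactotrophs from 854 and 182 to 526 and 261, and in endothelial cells from 1648 and 738 to 2108 and 338. In the joint fit it moved that of lactotrophs from 313 and 679 to 1627 and 196, of FSC from 164 and 124 to 94 and 212, of corticotrophs from 94 and 52 to 32 and 69, of gonadotrophs from 91 and 171 to 139 and 85, of thyrotrophs from 107 and 18 to 30 and 60, and of somatotrophs from 111 and 125 to 66 and 239. The fit of the 6 pituitary types alone was chosen after seeing the data.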
